A study of Homo sapiens with 18 samples.

Results

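The contrast examined here asked how the response of SH-SY5Y cells to 5 μM cocaine differed between 6 h and 24 h after the drug. For each probe set, a group of array probes that reads one transcript or part of one, the difference between 5 μM and untreated cells was taken at 6 h and at 24 h, and the second was subtracted from the first. All values are log2 signals, so a difference of 1 is a doubling, and a positive contrast means that the cocaine difference was higher at 6 h than at 24 h. Probe sets whose mean over the 18 arrays of the series exceeded log2(40) were kept, which gave 25961 of 54675 probe sets and 12278 of 19775 named genes. The dimmest probe set inside this limit averaged 5.32215 and the brightest one outside it 5.32169.

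SH-SY5Y is an established human neuroblastoma line of adrenergic type. The cells were differentiated for 7 days in 10 μM retinoic acid, kept for 24 h without it, and exposed for 30 min to 5 μM, 1 μM or 0 μM cocaine hydrochloride, after which the medium was replaced. The titles and source names give the 5 μM dose, although the treatment labels of those arrays also hold the wording for non-treated controls, so the groups follow the titles. Per the methods, the untreated dishes went through the same medium changes, so retinoic acid pre-treatment and its withdrawal were meant to be common to every group. The retinoic acid target CYP26A1, given below, nevertheless read above 9 in 3 untreated arrays and in no cocaine-treated one. RNA was collected 6 h or 24 h after exposure, and each of the 3 arrays per dose and time carried RNA pooled from 3 dishes. The contrast used 12 arrays, and the 6 arrays of 1 μM cells entered the same linear model and gave the comparisons at the lower dose. Because nothing states that the pools of a group came from separate passages, the errors below measure the spread between pools, which may be partly technical.

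Cocaine blocks the plasma membrane transporters for dopamine, noradrenaline and serotonin, and in neurons a brief exposure is known to set off an early wave of transcription, through kinases and factors such as CREB, that fades while slower programmes follow. Genes can therefore differ in when they respond as well as in whether they respond. The tests below ask this for each probe set directly, through the difference between the times.

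Apart from TH, the adrenergic markers lay above the signal limit on all arrays, and so did several markers of the mesenchymal, substrate-adherent state of neuroblastoma. At their brightest probe sets, the adrenergic regulators PHOX2A, GATA3 and ISL1 ranged over all arrays between 10.97 and 13.09, and the neuronal genes STMN2 and ELAVL4 between 12.98 and 13.40. Tyrosine hydroxylase (TH), the first enzyme of dopamine synthesis, lay below the signal limit throughout, averaging 3.50 at 6 h and 3.87 at 24 h, whereas dopamine beta-hydroxylase (DBH), which makes noradrenaline from dopamine, stood at 9.05 to 9.82. Of 7 mesenchymal markers 5 were above the limit, with VIM at 11.5 to 12.99, TWIST1 at 12.14 to 12.72, FN1 at 10.75 to 11.41, SNAI2 at 8.995 to 10.12 and CD44 at 7.39 to 8.59, while PRRX1 and YAP1 were below it. The leukocyte markers PTPRC, CD3E and LYZ were also below the limit, as were the glial markers S100B and GFAP, and SOX10 reached 5.32 to 6.15.

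The response to 5 μM cocaine differed between the times at 948 probe sets of 739 genes (limma, Benjamini-Hochberg adjusted p below 0.10 over all 25961). The contrast was positive at 475, which is 1.83% of those tested, and negative at 473, or 1.82%. Replicate numbers paired the arrays within each time, and with the number as a block 1558 were positive and 2087 negative. Subtracting each array's median instead shifted the balance to 516 positive and 301 negative. Within each time, 5 μM differed from 0 μM at 6 h at 729 probe sets upward (2.81%) and 824 downward (3.17%), and at 24 h at 28 upward (0.108%) and 17 downward (0.0655%), or 15 and 18 after subtracting medians. With the block these counts became 2423 upward and 3217 downward at 6 h, and 518 upward and 274 downward at 24 h.

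The 948 probe sets were divided by the sizes of their differences at the 2 times. A probe set was called reversed where the differences had opposite signs and each reached 0.2, faded where it was not reversed and the 6 h difference was the larger in size, and late where the 24 h difference was the larger. Reversed responses numbered 318, faded ones 427 and late ones 203, and with the block 515, 2119 and 1011. The balance of directions differed among the classes as a description: 259 of the reversed probe sets were higher with cocaine at 6 h and lower at 24 h, against 59 the other way, whereas 171 of the late ones were higher at 24 h and 32 lower. Of the faded ones, 184 had a positive contrast and 243 a negative one. Faded and late are labels of size alone. Treated and untreated arrays stood wholly apart at both times, in opposite directions, in 137 of the 427 faded and 102 of the 203 late probe sets. Of all 25961 probe sets 628 did, and the calls themselves favour that arrangement. Since these classes depend on the limit of 0.2, the reversed class held 721 probe sets with a limit of 0.1 and 136 with a limit of 0.3.

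**Figure D1:**
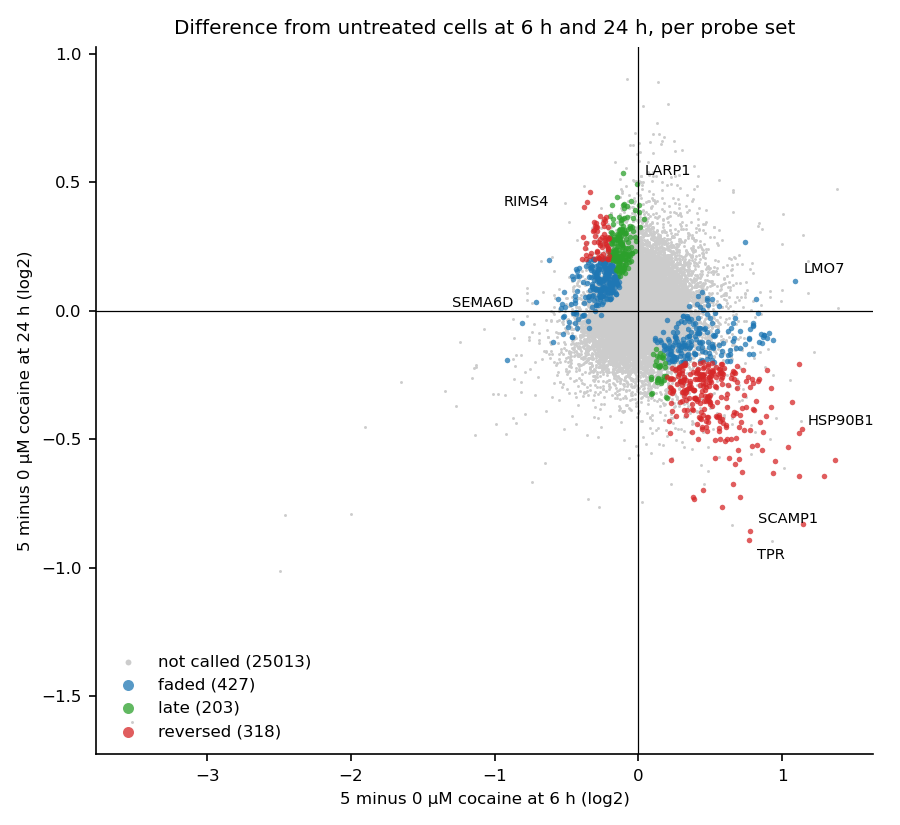
Difference between 5 μM and untreated cells (log2) at 6 h on the horizontal axis and at 24 h on the vertical axis, 1 point per probe set, coloured by class. The 318 reversed probe sets lie at the upper left and lower right, 259 of them at the lower right, where cocaine-treated cells were higher at 6 h and lower at 24 h.

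The balance between the ends of 1 control transcript also differed between the times. The ACTB control probe sets at the 3′ and 5′ ends of the beta-actin transcript differed by 0.49, 0.52 and 0.54 in 5 μM cells and by 0.55, 1.12 and 0.89 in untreated cells at 6 h. At 24 h the difference was 0.93, 0.69 and 1.03 in 5 μM cells and 0.61, 0.49 and 0.65 in untreated cells. The cocaine difference in this measure was therefore -0.34 at 6 h and 0.30 at 24 h, and its contrast of -0.63 had an exact two-sided permutation p of 0.005, the smallest that 400 arrangements of doses within times allow, with an adjusted p of 0.0267 over 8 array measures. With doses exchanged only between arrays of the same replicate number, the exact permutation p was 0.03125, the smallest that 64 arrangements allow, and the adjusted p 0.0833. The same measure for GAPDH had a contrast of -0.04 (exact permutation p = 0.135, adjusted p = 0.216). With the ACTB measure as a covariate, 156 probe sets had a significant contrast (65 positive and 91 negative), of which 103 were among the 948. The part of the ACTB measure in the responses was not tested beyond that fit.

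A second array feature concerned retinoic acid. CYP26A1, the retinoic acid hydroxylase and a direct target of its receptors, read 5.20, 5.39 and 5.53 in 5 μM cells and 5.01, 10.69 and 10.99 in untreated cells at 6 h. At 24 h it read 4.92, 4.96 and 6.31 in 5 μM cells and 5.40, 6.04 and 9.55 in untreated cells. Thus 3 untreated arrays lay above 9 and no cocaine-treated one did. Without those 3 arrays far fewer probe sets had a significant contrast. That fit kept replicate 1 alone of the untreated arrays at 6 h, and replicates 1 and 2 at 24 h. Calls lost in it may reflect the few arrays left, which was not tested. For single genes, contrasts from that fit are given below by size alone, whether or not the call was kept. At 6 h the untreated replicates 2 and 3, which it left out, also had the largest ACTB differences, 1.12 and 0.89 against 0.55 in replicate 1. A spiked-in hybridization control, bioD relative to cre, set all 3 untreated arrays of 6 h apart from both cocaine doses. Its mean was -1.06 in untreated and -1.58 in 5 μM arrays, as described at the end.

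**Figure D2:**
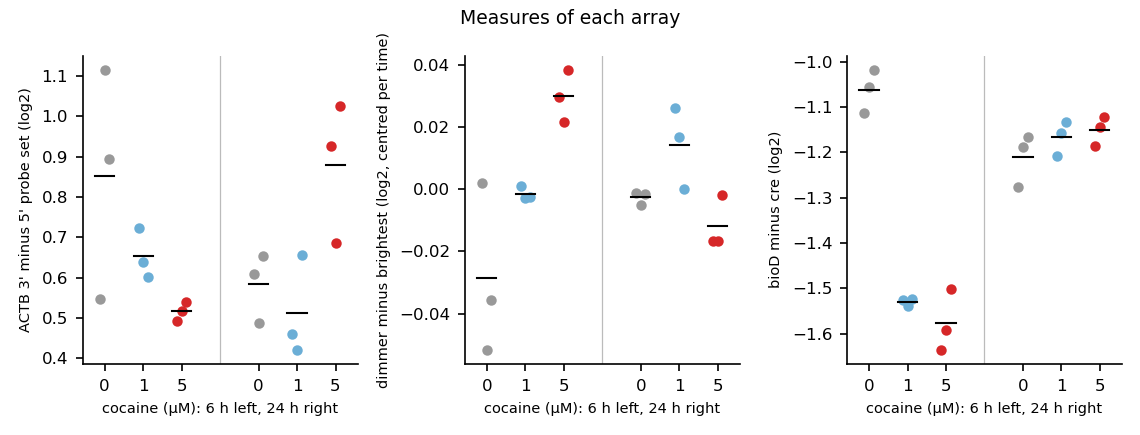
ACTB, probe set and control measures of each array (log2) by cocaine dose, with 6 h on the left and 24 h on the right of each panel: ACTB 3′ minus 5′ probe set, mean of the dimmer minus the brightest probe set over genes with several, and the spiked-in control bioD minus control cre. Points are arrays and bars group means; the ACTB difference with 5 μM is below that of untreated cells at 6 h (mean -0.34) and above it at 24 h (mean 0.30).

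Some reversals passed the tests at both single times as well. These were 12 probe sets of 10 genes that were higher with 5 μM at 6 h and lower at 24 h, and 10 probe sets of 10 genes that were lower at 6 h and higher at 24 h. All 22 kept a significant contrast when any single array was left out and with the block, with joint quantile normalization and with median centring. With the ACTB measure as a covariate 16 of the 22 did. The 22 were chosen on the same values, so a large contrast was built in and keeping it is no separate support. Their test at 24 h was less steady. It called 0 to 229 of all probe sets with 1 array left out, 1 with the 9 arrays of 24 h and 0 at an adjusted p below 0.05. Only TMEFF2, a transmembrane protein with follistatin-like domains, was higher at both times, at the dimmer of its probe sets (0.66 at 6 h and 0.47 at 24 h, adjusted p = 0.000505 and 0.0528 from limma), and no probe set was lower at both. A further 330 probe sets had a significant contrast although neither time passed on its own.

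HSP90B1 encodes GRP94, the HSP90 chaperone of the endoplasmic reticulum. Its dimmer probe set, with a mean of 7.38 over 18 arrays, read 7.73, 7.57 and 7.42 in 5 μM cells and 6.43, 6.53 and 6.39 in untreated cells at 6 h. At 24 h it read 7.41, 7.49 and 7.32 in 5 μM cells and 7.92, 7.88 and 7.84 in untreated cells. The groups did not overlap at either time, and the order of the doses turned over between them. The difference was 1.12 (standard error 0.09) at 6 h and -0.48 (0.09) at 24 h, which gave a contrast of 1.59 (0.12, adjusted p = 4.23e-05 from limma). At this probe set the contrast was 1.57 with the ACTB covariate and 1.64 without the arrays high in CYP26A1. The brightest probe set, with a mean of 10.54, had a contrast of 0.70 (0.12, adjusted p = 0.00764), with 0.51 at 6 h and -0.19 at 24 h. Its call was lost with the ACTB covariate (0.64, adjusted p = 0.147), and its contrast was 0.59 without the arrays high in CYP26A1. Both probe sets carry the suffix that marks probes shared with other transcripts, so related sequences may add to their signal.

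SCAMP1, a carrier membrane protein of secretory and synaptic vesicles, reversed at 4 of its 6 measured probe sets. The one averaging 6.86 read 7.20, 7.21 and 7.07 in 5 μM cells and 6.50, 6.20 and 6.45 in untreated cells at 6 h, and 6.40, 6.31 and 6.63 against 7.44, 7.26 and 7.22 at 24 h. Treated arrays were all above untreated ones at 6 h and all below them at 24 h, with differences of 0.78 and -0.86 and a contrast of 1.64 (standard error 0.21, adjusted p = 0.00222). The contrast was 1.44 at the probe set averaging 7.97, 1.14 at that averaging 6.91 and 0.81 at that averaging 9.25. The gene's brightest probe set, at 10.76, gave -0.15 at 6 h and -0.04 at 24 h and a contrast of -0.11 (adjusted p = 0.632), so that the reversal was not seen there.

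The splicing factor SF3B1, the largest subunit of the SF3b complex that recognises the branch point, showed the same division. The probe set averaging 9.39 read 9.79, 9.48 and 9.40 in 5 μM cells and 8.91, 8.92 and 8.77 in untreated cells at 6 h, and 9.34, 9.34 and 9.16 against 9.77, 9.83 and 9.87 at 24 h. Its differences of 0.69 at 6 h and -0.54 at 24 h both passed, and the contrast was 1.23 (standard error 0.15, adjusted p = 0.00216). The probe set averaging 8.61 had a contrast of 1.14 (adjusted p = 0.00541), whereas the brightest, at 12.24, had -0.01 (adjusted p = 0.977).

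TPR, a nuclear basket protein of the nuclear pore, had a contrast of 1.66 at a probe set averaging 5.93 (standard error 0.24, adjusted p = 0.00434), from 0.77 at 6 h and -0.89 at 24 h. In 5 μM cells the arrays read 6.08, 6.08 and 6.36 at 6 h, against 5.53, 5.28 and 5.41 in untreated cells, and at 24 h 5.34, 5.59 and 6.02 against 6.26, 6.80 and 6.57. Its brightest probe set, at 10.90, also passed, at a contrast of 0.62 (adjusted p = 0.0419). The call at the dimmer probe set was lost with the ACTB covariate (1.50, adjusted p = 0.106), and its contrast was 1.52 without the CYP26A1-high arrays.

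The other genes higher at 6 h and lower at 24 h by both tests had varied roles. SMAD5, a transducer of BMP signals, differed by 0.63 at 6 h and -0.57 at 24 h, and LUZP1, an actin- and cilium-associated leucine zipper protein, by 0.66 and -0.67. CALD1, the actin-binding caldesmon, differed by 0.58 and -0.76, and TCAF1, a regulator of TRP channels, by 0.54 and -0.50. GNG4, a G-protein gamma subunit, differed by 0.42 and -0.29, and APPBP2, which binds the amyloid precursor protein, by 0.37 and -0.47. None of the 12 probe sets was the brightest of its gene. At the brightest ones the contrast was 0.52 for TCAF1, which passed, and 0.21 for CALD1, 0.04 for LUZP1, -0.13 for SMAD5, -0.20 for GNG4 and -0.20 for APPBP2, none of which passed. The brightest APPBP2 probe set differed by -0.21 at 6 h, with the treated arrays wholly below the untreated ones, and did not pass at that time (adjusted p = 0.152). At each of the 6 probe sets with both calls, the 3 treated arrays stood wholly above the untreated ones at 6 h and wholly below them at 24 h. Arrays with that arrangement made up 285 of all probe sets tested (1.1%), the opposite arrangement 343 (1.32%), treated arrays above at both times 71 (0.273%) and below at both times 144 (0.555%).

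**Figure D3:**
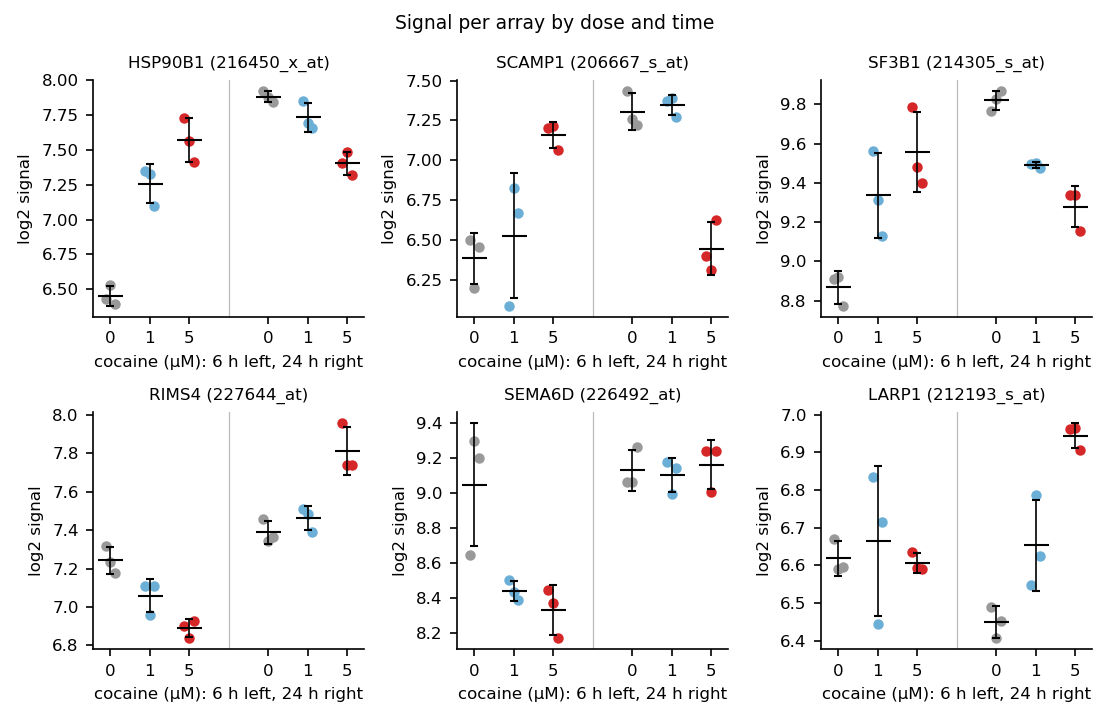
Log2 signal of each array for 6 probe sets by cocaine dose, with 6 h left of the line and 24 h right of it; bars show the mean and SD of 3 arrays. HSP90B1, SCAMP1 and SF3B1 are higher with 5 μM than without cocaine at 6 h and lower at 24 h, RIMS4 is the reverse, SEMA6D is lower at 6 h alone and LARP1 higher at 24 h alone.

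The 10 genes lower at 6 h and higher at 24 h by both tests had smaller differences. RIMS4, a small member of the RIM family of presynaptic active zone proteins, read 6.90, 6.84 and 6.93 in 5 μM cells and 7.32, 7.23 and 7.18 in untreated cells at 6 h. At 24 h it read 7.96, 7.74 and 7.74 in 5 μM cells and 7.46, 7.34 and 7.36 in untreated cells. Its differences were -0.35 and 0.42 and its contrast -0.78 (standard error 0.10, adjusted p = 0.00216), with -0.84 under the ACTB covariate. BAG6, a chaperone for tail-anchored membrane proteins, had a contrast of -0.64 at the probe set averaging 10.34 (standard error 0.09, adjusted p = 0.00316), and its remaining probe sets gave -0.49 and -0.41, both significant, so all 3 measured probe sets moved the same way.

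The remaining 8 genes had varied roles. UBA1, the main ubiquitin-activating enzyme, differed by -0.24 at 6 h and 0.36 at 24 h, and AP2B1, a subunit of the clathrin adaptor of endocytosis, by -0.24 and 0.33. SEZ6L2, a neuronal membrane protein, differed by -0.25 and 0.34, and TBCD, a chaperone in tubulin folding, by -0.15 and 0.21. The kinase CDK16 differed by -0.19 and 0.30, TRO, an adhesion protein of the MAGE family, by -0.18 and 0.28, CBX5, the heterochromatin protein HP1 alpha, by -0.18 and 0.36, and the nuclear lamina protein LMNB2 by -0.14 and 0.25. CDK16, TRO, CBX5, TBCD and LMNB2 fell into the late class by the size limit although both their tests passed.

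The promoters of 4 of these 20 genes are shown to give the letters around the motifs that were searched for in all promoters. They run from 250 bases before to 50 after the first transcription start listed for the gene (RefSeq, GRCh38.p14). HSP90B1 lies at chr12:103930160-103930459 on the plus strand, and capitals mark its endoplasmic reticulum stress elements, CCAAT and CCACG 9 bases apart on either strand. SCAMP1 is at chr5:78360367-78360666, plus strand, with its GC box GGGCGG in capitals. SF3B1 is at chr2:197434979-197435278, minus strand, with its E-box CACGTG in capitals, and AP2B1 at chr17:35587072-35587371, plus strand, with its cAMP response elements TGACGTCA in capitals.
HSP90B1: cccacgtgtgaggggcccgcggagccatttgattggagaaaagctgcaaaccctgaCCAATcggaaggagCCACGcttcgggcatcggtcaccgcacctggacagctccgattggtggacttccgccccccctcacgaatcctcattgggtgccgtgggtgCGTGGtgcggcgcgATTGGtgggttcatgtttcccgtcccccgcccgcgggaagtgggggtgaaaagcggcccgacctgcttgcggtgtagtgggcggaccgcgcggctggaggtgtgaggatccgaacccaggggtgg
SCAMP1: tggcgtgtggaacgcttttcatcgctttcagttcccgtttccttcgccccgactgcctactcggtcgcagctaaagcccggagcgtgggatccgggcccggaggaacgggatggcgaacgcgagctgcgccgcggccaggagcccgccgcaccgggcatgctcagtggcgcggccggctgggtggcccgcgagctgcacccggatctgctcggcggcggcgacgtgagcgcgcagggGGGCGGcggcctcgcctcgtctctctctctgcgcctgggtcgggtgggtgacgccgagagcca
SF3B1: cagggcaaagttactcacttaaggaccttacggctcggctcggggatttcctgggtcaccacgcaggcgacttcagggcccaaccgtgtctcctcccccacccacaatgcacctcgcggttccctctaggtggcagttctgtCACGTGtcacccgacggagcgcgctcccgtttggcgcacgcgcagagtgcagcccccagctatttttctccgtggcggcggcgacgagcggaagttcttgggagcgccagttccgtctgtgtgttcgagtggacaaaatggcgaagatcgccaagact
AP2B1: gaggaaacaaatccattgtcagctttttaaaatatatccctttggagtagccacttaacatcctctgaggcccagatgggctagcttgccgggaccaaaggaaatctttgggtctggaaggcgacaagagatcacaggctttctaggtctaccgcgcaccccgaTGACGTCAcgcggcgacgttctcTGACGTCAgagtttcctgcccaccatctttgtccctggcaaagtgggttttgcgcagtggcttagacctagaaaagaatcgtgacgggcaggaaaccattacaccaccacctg

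Promoters were available for 302 of the 364 genes with a positive contrast, 325 of the 385 with a negative one and 10029 of the 12278 measured, and both strands were searched. The paired stress element was found in 1 promoter of the first group, that of HSP90B1, none of the second and 13 of all measured. The cAMP response element TGACGTCA occurred in 2.65% of promoters of genes with a positive contrast, 4.31% with a negative one and 3.31% of all. The ETS motif CCGGAAGT occurred in 6.29%, 13.2% and 8.77% in the same order, the GC box in 73.2%, 77.5% and 70.3%, and the E-box in 10.6%, 12.3% and 10.3%. CCAAT alone occurred in 38.7%, 36% and 36.6%, and the AP-1 site TGAGTCA in 2.65%, 2.46% and 2.76%. These shares describe letters in a short window, and no test of them was made.

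Further large positive contrasts among the called probe sets included that of MALAT1, a nuclear long noncoding RNA retained in speckles. The MALAT1 probe set averaging 7.82 read 8.32, 8.43 and 8.29 in 5 μM cells and 7.19, 7.33 and 7.09 in untreated cells at 6 h, and 7.27, 8.03 and 7.13 against 7.75, 8.87 and 8.31 at 24 h. The groups were apart at 6 h and overlapped at 24 h, with a contrast of 1.97 (standard error 0.37, adjusted p = 0.0156). At its brightest probe set of 12 the contrast was 0.28 (adjusted p = 0.745). DDX17, an RNA helicase, had 1.95 at a dimmer probe set and 0.01 at its brightest, and SF1, which binds the branch point early in splicing, 1.76 at its dimmer probe set, while its brightest passed in the opposite direction at -0.29. LARS1, the cytosolic leucyl-tRNA synthetase, had 1.57, C5orf24 1.53, SUPT16H, a subunit of the FACT histone chaperone, 1.42, and SECISBP2L, related to the selenocysteine insertion factor, 1.40.

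Among called probe sets with a gene name, the largest negative contrasts were smaller in size than the largest positive ones. CNNM2, a magnesium transport protein, had -0.82, ARID1A, a subunit of the BAF chromatin remodelling complex, -0.80, the receptor ROR1, which binds Wnt5a, -0.79 and the small GTPase RASL10B -0.77. SUPT6H, a histone chaperone of elongating RNA polymerase II, had -0.67 at its brightest probe set (standard error 0.09, adjusted p = 0.00344), from -0.38 at 6 h and 0.29 at 24 h, and -0.62 at another. PWAR6, a noncoding transcript of the Prader-Willi region, had -0.66 and MKI67, the proliferation antigen Ki-67, -0.64 (adjusted p = 0.0993). Of the 64 named calls followed through the alternative fits, 17 were lost in none and 10 in at least 1 of every 2, and these 10 were CUX1, DUBR, MCC, MKI67, MTCL2, PCNP, PWAR6, SUPT16H, TLCD3B and UHMK1.

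Faded responses were led by LMO7, an adaptor of adherens junctions and actin, which read 6.29, 6.21 and 6.01 in 5 μM cells and 5.31, 5.27 and 4.66 in untreated cells at 6 h. At 24 h the arrays overlapped, at 6.50, 6.26 and 6.10 in 5 μM cells and 6.26, 6.19 and 6.07 in untreated cells. Its difference was 1.09 at 6 h and 0.12 at 24 h (contrast 0.98, adjusted p = 0.0686). SOS2, a guanine nucleotide exchange factor for Ras, had 0.94 at 6 h and -0.12 at 24 h, UBN2, a subunit of the histone H3.3 chaperone HIRA complex, 0.91 and -0.09, and FAM111B 0.89 and -0.11. CDCA2, which targets a phosphatase to mitotic chromatin, had 0.87 and -0.10, and UHMK1, a kinase of splicing factors, 0.87 and -0.09.

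Of the genes that the study followed by PCR, PPP1R9A and IGF2BP3 faded and ELF1 reversed, none of them at its brightest probe set. These genes were picked on these samples, so their array values at 6 h are no independent evidence. The paper also measured them by PCR in new experiments over several hours after exposure. It reports changed expression for all of those named in this paragraph. Those PCR data are separate from the arrays and were not examined here. PPP1R9A, the actin-binding neurabin of dendritic spines, read 6.92, 7.05 and 6.97 in 5 μM cells and 6.36, 6.10 and 6.10 in untreated cells at 6 h, and 7.03, 6.78 and 7.23 against 7.19, 6.91 and 7.09 at 24 h. The 6 h difference of 0.80 stood beside -0.05 at 24 h (contrast 0.85, standard error 0.16, adjusted p = 0.0149), with 0.06 at the brightest probe set. IGF2BP3, an RNA-binding protein, had a contrast of 0.96 and the ETS factor ELF1 one of 1.19, against 0.20 and -0.03 at their brightest probe sets. With the ACTB covariate the contrast was 0.30 for IGF2BP3 (adjusted p = 0.641), 0.50 for ELF1 (adjusted p = 0.311) and 0.95 for PPP1R9A (adjusted p = 0.119), and none of the 3 passed. Without the arrays high in CYP26A1 the contrasts were 0.66, 1.02 and 0.67 in the same order. ENC1, NFAT5 and NRG1 did not pass, with adjusted p = 0.101, 0.381 and 0.25 at their probe sets of smallest p. That of ENC1 differed by 0.74 at 6 h (adjusted p = 0.0167 from limma) and 0.05 at 24 h, a contrast of 0.69. The brightest ENC1 probe set differed by 0.15 and 0.06.

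SEMA6D, a transmembrane semaphorin that guides axons, was lower at 6 h at the brightest of its 3 measured probe sets, and the response faded. It read 8.45, 8.37 and 8.17 in 5 μM cells and 8.65, 9.30 and 9.20 in untreated cells at 6 h, and 9.24, 9.00 and 9.24 against 9.06, 9.06 and 9.27 at 24 h. The differences were -0.72 and 0.03 and the contrast -0.75 (standard error 0.19, adjusted p = 0.0665). The contrast became -0.14 with the ACTB covariate (adjusted p = 0.767) and -0.41 without the CYP26A1-high arrays. At 6 h its lowest untreated array, replicate 1, was also the one low in CYP26A1. RASL10B had -0.81 at 6 h and -0.05 at 24 h, and C2CD4B, MCC and TLCD3B had 6 h differences of -0.56, -0.53 and -0.54 beside 24 h differences of 0.04, 0.03 and 0.01.

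Late responses were mostly upward. LARP1, which binds the terminal oligopyrimidine mRNAs of the translation machinery, read 6.64, 6.59 and 6.59 in 5 μM cells and 6.67, 6.59 and 6.60 in untreated cells at 6 h. At 24 h it read 6.96, 6.96 and 6.91 in 5 μM cells and 6.49, 6.41 and 6.45 in untreated cells, with no overlap. The difference was -0.01 at 6 h and 0.49 at 24 h (contrast -0.51, standard error 0.12, adjusted p = 0.0419), against -0.14 at the brightest probe set of the gene. MICAL3, an oxidoreductase that acts on actin, had -0.10 at 6 h and 0.41 at 24 h at its brightest probe set, and KAT6A, a histone acetyltransferase, -0.06 and 0.33, both passing at 24 h. RAPGEF1, an exchange factor for Rap1, had -0.11 and 0.41, CUX1 -0.15 and 0.44 and MTCL2 -0.18 and 0.41, none of which passed at 24 h alone.

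The 32 late downward probe sets were led by BECN1, the autophagy regulator beclin 1. It read 9.12, 9.08 and 9.08 in 5 μM cells and 8.99, 8.79 and 8.91 in untreated cells at 6 h, and 9.04, 9.00 and 8.96 against 9.40, 9.30 and 9.33 at 24 h. The difference of -0.34 at 24 h passed (adjusted p = 0.0783), and the contrast was 0.54 (standard error 0.09, adjusted p = 0.00726). Its 6 h difference of 0.197 lay just under the class limit of 0.2, with the treated arrays wholly above the untreated ones. BRCC3, a deubiquitinase of lysine 63-linked chains, had -0.34 at 24 h, ZNF195 and the noncoding DUBR each -0.32, LDAF1, a lipid droplet assembly factor, -0.28 and PCNP -0.27, beside 6 h differences of 0.09 to 0.19.

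The 2 times could also be compared without the contrast, since they share no arrays. Across the 25961 probe sets the difference at 6 h and that at 24 h had a Pearson correlation of -0.03 and a Spearman correlation of -0.00, and 49.7% had the same sign. These correlations are across probe sets, which are not independent of each other. Of the 729 probe sets higher at 6 h, 71.2% lay below 0 at 24 h, with a median of -0.08, where 49.5% of all probe sets did. Of the 824 lower at 6 h, 54.6% lay below 0 at 24 h, with a median of -0.01. The upward response at 6 h was therefore followed by values mostly below those of untreated cells, and the downward one by values near 0.

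This tendency depended on which probe set of a gene was read. Among genes higher at 6 h at their brightest probe set, 53.8% of 119 lay below 0 at 24 h (median -0.02), while 76.5% of the 493 probe sets that were not the brightest did (median -0.11). Of the probe sets with a positive contrast and a single gene name, 17.9% were the brightest of their gene, against 64.4% of those with a negative contrast and 55.3% of all. Of 5900 genes with several measured probe sets, 335 had a positive call, 45 of them at the brightest and 2 at every probe set. A negative call was made for 248, of which 132 had it at the brightest. With 1 probe set per gene, the brightest, the contrast was significant for 304 genes, 66 positive and 238 negative.

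Calls were made in both directions at different probe sets of 10 genes, CLCN5, CPEB4, CUX1, GTSE1, NFATC3, PHACTR1, SF1, SIKE1, VPS13B and ZMYM2. Different probe sets read different stretches or forms of a transcript. Which stretch each one reads was not analysed here. In the 5327 genes with more than 1 probe set and no call, the dimmer ones, averaged and set against the brightest, were higher by 0.06 with 5 μM at 6 h and lower by 0.01 at 24 h (contrast 0.07, exact two-sided permutation p = 0.01, adjusted p = 0.0267 over the 8 array measures, and 0.03125 and 0.0833 with doses exchanged within replicate numbers). Its part in the calls was not tested.

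**Figure D4:**
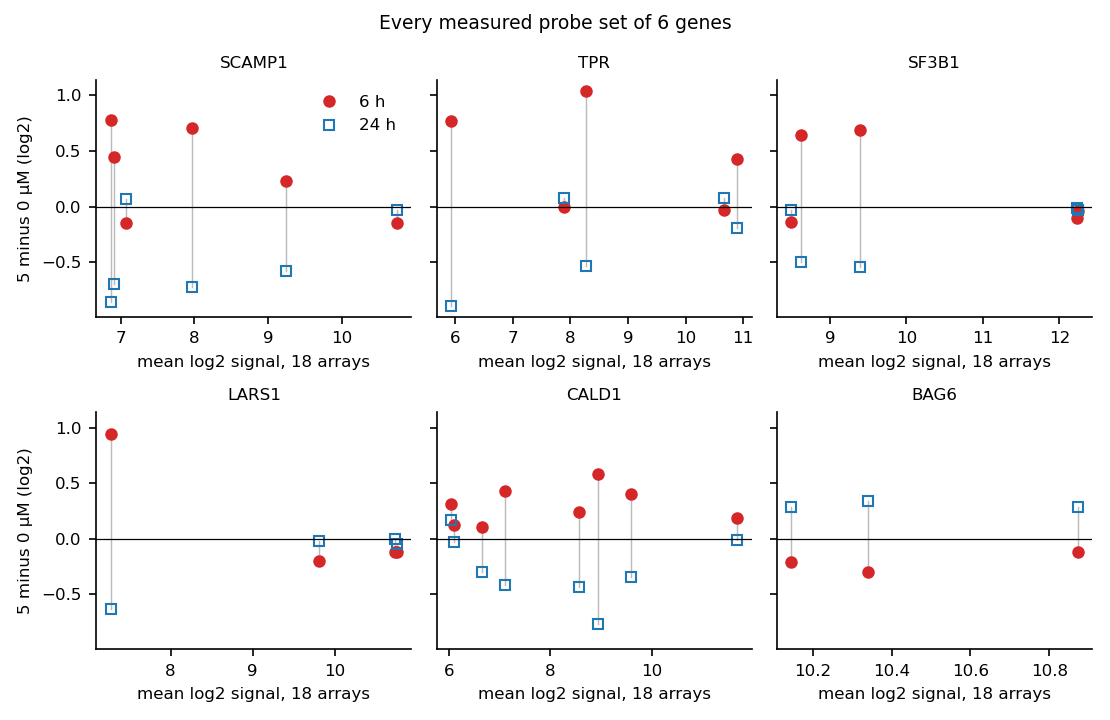
Difference between 5 μM and untreated cells (log2) at 6 h (filled circles) and 24 h (open squares) for every measured probe set of 6 genes, against the mean log2 signal of the probe set. SCAMP1, SF3B1 and LARS1 differ widely at some dimmer probe sets and stay near 0 at the brightest, whereas all 3 probe sets of BAG6 lie below 0 at 6 h and above 0 at 24 h.

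Genes with a positive call were longer, with a median span of 51.7 kb, than those with a negative call (35.9 kb) and all measured genes (29.5 kb). By chromosome, 0.567% of probe sets of chromosome 19 were positive and 3.19% negative, and on chromosome 22 it was 1.15% and 4.2%. Chromosome 13 had 2.92% positive and 0.225% negative. Probe sets whose suffix marks transcripts shared within a gene or family made up 43.2% of the positive calls, 35.3% of the negative ones and 29.2% of all.

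Gene groups were read at each gene's brightest probe set, where the contrast over all 12278 genes had a median of -0.04, with 74 positive calls (0.603%) and 269 negative ones (2.19%). Counted by any probe set of a gene, 364 genes were positive (2.96%) and 385 negative (3.14%). Among 40 genes of G2/M and mitosis the contrast was below 0 in 38, where 7407 of all genes were below 0, and the median was -0.15, from -0.07 at 6 h and 0.05 at 24 h. Only TPX2, a spindle assembly factor, passed (-0.46, adjusted p = 0.025, -0.17 at 6 h and 0.29 at 24 h), and ASPM, CDK1 and NUSAP1 had positive calls at dimmer probe sets. Among 81 chromatin modifiers the contrast was below 0 in 62, with a median of -0.12, and 4 were negative calls and none positive. SMARCC2, a BAF core subunit, was at -0.44 (adjusted p = 0.0328). By any probe set 8 chromatin modifiers were negative, ARID1A, KAT6A, KDM1A, KMT2B, NSD1, SETD2, SMARCA4 and SMARCC2, and 4 positive, with SMCHD1, which silences the inactive X chromosome, at 1.32.

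Of 54 splicing factors, 27 were below 0 at their brightest probe sets, with a median of -0.00, 1 negative call and no positive one. By any probe set, 9 had a positive call, among them SFSWAP at 1.07 (0.74 at 6 h and -0.33 at 24 h), ARGLU1 at 1.02 and the RNA-binding protein TIA1 at 0.85, and PRPF8 and SF3A1 had negative calls. Of 42 genes of nuclear pore and transport, 2 were positive by any probe set, TPR and NUP58, and 6 negative, with the importin KPNA6 at -0.55 (adjusted p = 0.00497). Of 52 neurite and actin genes, 4 were positive by any probe set, including WASL at 1.27, CALD1 and the actin elongation factor ENAH at 0.46, and DBN1 and MAP1A were negative. Of 40 axon guidance genes, SEMA6D and EPHB4, an ephrin receptor at -0.35, passed, both negative.

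Metabolic and stress groups held few calls in number. Of 24 sterol and fatty acid synthesis genes 2 were negative (8.33%, against 2.19% of all genes). FASN, fatty acid synthase, was at -0.43, with -0.14 at 6 h and 0.29 at 24 h, and DHCR7, the last enzyme of cholesterol synthesis, at -0.50. Among heat shock proteins, dimmer probe sets of HSP90AB1, HSPD1 and HSPH1 were positive at 0.63, 0.49 and 1.01, and none of 19 passed at its brightest. HSP90B1 was the only one of 28 endoplasmic reticulum chaperone and unfolded protein response genes to pass. No call was made among 23 immediate early genes, 51 cytosolic ribosomal protein genes, 30 proteasome genes, 18 circadian clock genes and 14 genes of catecholamine synthesis, transport and breakdown. DBH had a contrast of -0.53 in that last group (adjusted p = 0.263). At the shares of all genes, 0.603% positive and 2.19% negative, groups of 14 to 51 genes would hold few calls or none. Among 20 retinoic acid response genes only PBX3 passed (-0.26), and the median was -0.27 at 6 h and -0.10 at 24 h, beside the CYP26A1 levels given above. In the 6 h comparison alone, 4 of these 20 were called lower with 5 μM, where 480 of all 12278 genes were. Among 32 genes of the ATF4 amino acid response, CARS1, EPRS1 and LARS1, all aminoacyl-tRNA synthetases, were positive by any probe set and CBS negative, and among 11 nuclear long noncoding RNAs HCG18 and MALAT1 were positive and TUG1 negative. The lists not named here had at most 1 gene called in each direction. Of 13 adrenergic marker genes, TFAP2B was positive and PHOX2A negative (-0.59, adjusted p = 0.0995).

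**Figure D5:**
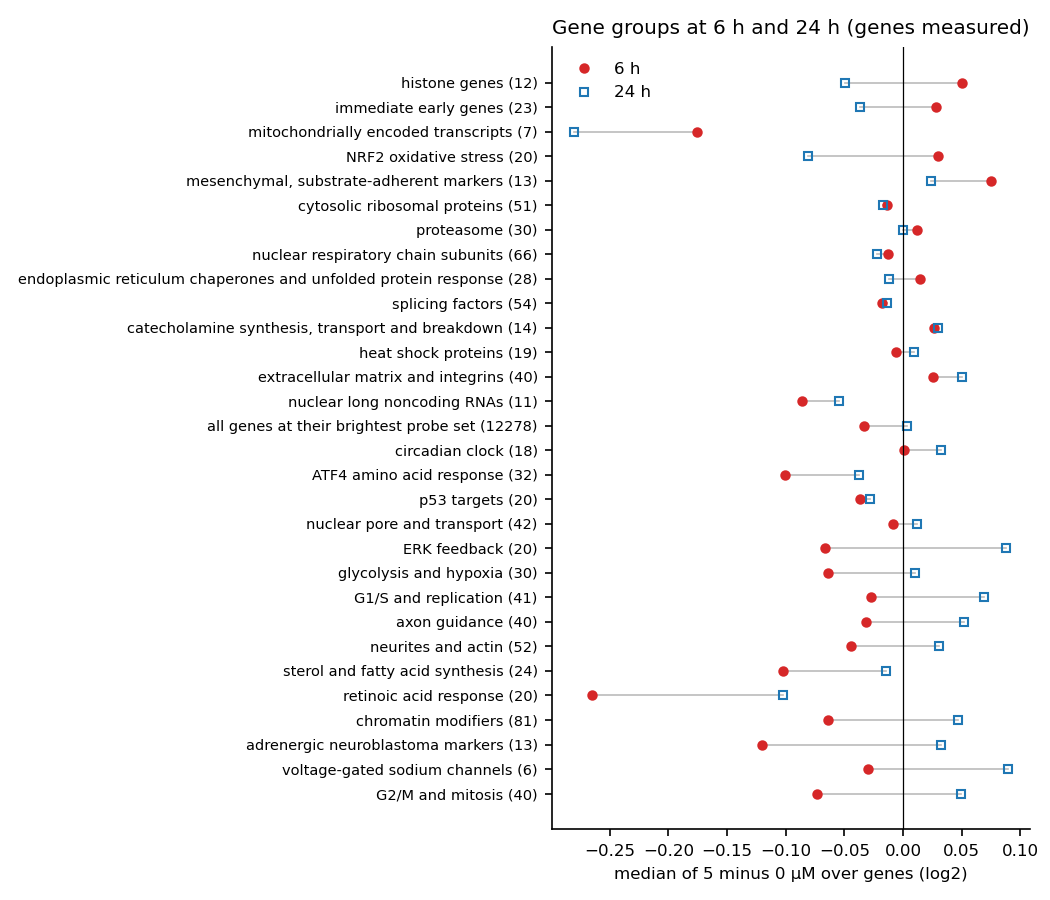
Median difference between 5 μM and untreated cells (log2) over the genes of each group, each gene at its brightest probe set, at 6 h (filled circles) and 24 h (open squares), with the number of genes measured in parentheses. Mitotic genes lie at -0.07 at 6 h and 0.05 at 24 h and chromatin modifiers at -0.06 and 0.05, while splicing factors lie at -0.02 and -0.01.

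At the lower dose the same contrast gave few calls. For 5 μM against 1 μM, 6 probe sets had a positive contrast (0.0231%) and none a negative one, with 2395 of 25961 at an unadjusted p below 0.05. They were 3 of SCAMP1, at 1.53, 1.40 and 1.04, and 1 each of UBXN4, an endoplasmic reticulum protein of protein degradation, at 1.09, RIF1, a regulator of DNA replication timing and repair, at 1.01, and the channel protein PANX1 at 0.88. For 1 μM against untreated cells, only the dimmer probe set of HSP90B1 passed, at 0.95 (standard error 0.12, adjusted p = 0.0339, 0.00385% of those tested). With the block these counts were 518 positive and 258 negative for 5 μM against 1 μM, and 308 positive and 637 negative for 1 μM against 0 μM.

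The 1 μM arrays placed the 2 genes differently. At this HSP90B1 probe set, 1 μM cells read 7.35, 7.33 and 7.10 at 6 h, above the untreated arrays and overlapping none of them, and 7.85, 7.69 and 7.66 at 24 h, overlapping the untreated ones. At the SCAMP1 probe set averaging 6.86, 1 μM cells read 6.08, 6.83 and 6.67 at 6 h and 7.37, 7.39 and 7.27 at 24 h, overlapping the untreated arrays at both times. The contrast of 1 μM against 0 μM at SCAMP1 was 0.10, beside 1.53 for 5 μM against 1 μM. These comparisons share the 1 μM arrays.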

How the data were processed

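Signals had been measured on 18 arrays of SH-SY5Y cells, 3 per dose (0, 1 and 5 μM cocaine) and time (6 and 24 h). The deposited values are log2 signals that, per the labels, the authors obtained with RMA, which per the methods was run separately for each time. Array medians lay between 4.96 and 5.01 for 6 h and between 5.30 and 5.35 for 24 h. Differences were therefore taken within each time. Versions of RMA and limma are not given in the sources used here. The number of arrays limits the precision, and no read depth applies.

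Control probe sets (62) were excluded and probe sets with a mean over 18 arrays above log2(40) kept. The 6 group means were fitted with limma 3.58.1 in R 4.3.3 (lmFit, contrasts, eBayes), with Benjamini-Hochberg adjustment over 25961 probe sets and a threshold of 0.10. Gene names came from the platform annotation, with 22215 probe sets given 1 symbol, 1056 several and 2690 none, and symbols were updated through RefSeq. Probe sets with several symbols were not named. The brightest probe set of a gene is the one with the highest mean.

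The members and the 30 gene lists were chosen with earlier results of these data known. The named genes are the 10 largest contrasts in each direction, the 6 leading ones of each class and direction, up to 4 of each list, genes the study followed, and up to 4 calls of the lower-dose contrasts; the genes called at both times and the probe sets set beside named ones were added after their values were seen. Array measures were tested by exact permutation of doses within times. The size of the contrast was checked on simulated data with known differences. Their noise was independent between arrays, without the pairing or array features of these data, so that check does not bear on the calls.

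Same-numbered arrays deviated together from their group means, with correlations between 0.363 and 0.755 over 9 pairs at 6 h and between 0.373 and 0.734 over 9 pairs at 24 h, so the numbers, taken from the sample titles, pair the arrays within a time. Same-numbered arrays of different times were also correlated (median 0.548, lowest 0.00572, over 27 pairs, against -0.257 for different numbers), and a block within each time takes up a shift shared by both times too. Alternatives comprised other sets of arrays, the replicate block, other scalings, filters and thresholds, and leaving out each array. Use of the ACTB covariate, exclusion of arrays high in CYP26A1, fits within one time and permutation within replicate numbers were chosen after the data were seen.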

Additional observations from a re-analysis of the deposited data

Results flagged for a closer look

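The response to 5 μM cocaine differed between 6 h and 24 h by a test of the difference itself at 948 probe sets, as described above. Among the 8 measures taken on each array, 3 also differed between the times in how 5 μM and untreated arrays stood. The ACTB 3′ minus 5′ measure had a contrast of -0.63 (exact permutation p = 0.005, adjusted p = 0.0267). The spiked-in control bioD relative to the control cre, both of which are added to the hybridization mix, averaged -1.58 ± 0.07 in 5 μM arrays and -1.06 ± 0.05 in untreated arrays at 6 h and -1.15 ± 0.03 and -1.21 ± 0.06 at 24 h (SD, n = 3 each), a contrast of -0.57 (exact permutation p = 0.01, adjusted p = 0.0267). Arrays of 1 μM cells at 6 h read -1.53, -1.54 and -1.52 for bioD minus cre, so the untreated arrays of that time stood apart from both cocaine doses. Every 6 h difference from untreated cells was therefore taken across this split, and so was the contrast. What set the untreated arrays apart in this added control was not tested. The mean of dimmer minus brightest probe sets had a contrast of 0.0677 (exact permutation p = 0.01). With doses exchanged only within replicate numbers, each of these 3 had an exact permutation p of 0.03125, the smallest possible, and an adjusted p of 0.0833. The part of these measures in the gene results was not tested beyond the fits given.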

How the results depend on the processing

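None of the 64 named calls followed through the alternatives reversed its direction; other named probe sets were not followed. Blocking on replicate number gave 3645 for the contrast, 5640 at 6 h, 792 at 24 h, 776 and 945 for the contrasts of 5 against 1 μM and 1 against 0 μM, and 515 reversed, 2119 faded and 1011 late, and all 64 named calls were kept. In the order contrast, 6 h and 24 h, the counts were 430, 808 and 6 with only the 12 arrays of 5 and 0 μM, 1708, 4206 and 115 with array weights, 423, 715 and 0 at an adjusted p below 0.05 (2210 at 24 h had an unadjusted p below 0.05), and 304, 575 and 11 with 1 probe set per gene. Without the signal filter the contrast gave 552 and 24 h 4, with means above log2(100) 24 h gave 109, and with the 9 arrays of one time 6 h gave 718 and 24 h 1. The contrast of 5 against 1 μM gave 10 after joint quantile normalization, and that of 1 against 0 μM 5 then and 6 after median centring. A class limit of 0.1 gave 721 reversed, 175 faded and 52 late, and one of 0.3 gave 136 reversed. With the ACTB covariate the contrast gave 156, 6 h 469 and 24 h 0 (2688 unadjusted), with 127 reversed, 21 faded and 8 late, and 21 of 64 named calls were kept. Without the 3 untreated arrays high in CYP26A1 these were 83, 21 and 0 (2135 unadjusted), with 65, 18 and 0, and 18 of 64 calls were kept. The cause of these shifts was not tested.

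Leaving out 1 array at a time gave 467 to 1351 for the contrast, 470 to 2629 at 6 h, 0 to 229 at 24 h, 1 to 161 and 0 to 37 for the lower-dose contrasts, 218 to 361 reversed, 171 to 810 faded and 75 to 224 late. The contrast count fell by more than 1.5 times without 6 h 5 μM replicate 1 (605), 2 (467) or 3 (531), 6 h untreated replicate 2 (564) or 3 (577), 24 h 5 μM replicate 1 (529) or 24 h untreated replicate 2 (488). The contrasts of array measures ranged from -0.784 to -0.4999 for ACTB, -0.05614 to -0.02864 for GAPDH, -0.2326 to -0.1282 for bioB, -0.2085 to -0.08923 for bioC, -0.6122 to -0.5419 for bioD, 0.05606 to 0.08294 for dimmer minus brightest, -3.868 to -0.8772 for CYP26A1 and 0.01552 to 0.03514 for the median. With 3 arrays per group, small differences at dim probe sets could not be resolved.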
